A study of Mus musculus with 7 samples.

Results

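A set of 10 receptor genes that mark resident-type macrophages were followed through macrophages sorted from mouse tumours. They are the lectin genes Mrc1, Mgl2 and Clec10a, the scavenger receptor genes Msr1, Marco, Stab1 and Cd163, and Folr2, Lyve1 and Timd4, which encode receptors for folate, hyaluronan and phosphatidylserine. The 10 genes were chosen by symbol, and each has 1 row among the 53379 genes of the count table. The macrophages were CD45-, CD11b- and F4/80-positive cells taken from MC38 tumours, a transplanted mouse colon carcinoma line, 21 days after implantation. All mice were C57BL/6J and ate a high-fat diet, and 3 were Gpr65 knockout and 4 Gpr65 wild-type. The labels give neither the age of the mice nor whether the knockout is limited to some cells. Each library is 1 mouse.

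Macrophages carry lectins and scavenger receptors on their surface to take up glycoproteins, modified lipoproteins, cell debris and microbes. Many of these receptors are high in macrophages that reside in healthy tissue and in macrophages exposed to interleukin-4 or glucocorticoids, and they are widely used as markers of such cells in tumours. Gpr65 is a receptor that senses extracellular protons and raises cyclic AMP. The question of the comparison is how its absence alters tumour macrophages.

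The libraries held between 22449772 and 30483733 counts. Gpr65 itself had 20 to 30 counts in knockout mice, against 1785 to 2912 in wild-type mice. Levels are given as CPM, counts scaled to library size, after correction for library composition, with the mean ± SD over 3 knockout and 4 wild-type mice. The sort markers were present in each mouse, with Adgre1, which encodes F4/80, at 495 to 1332 CPM in knockout mice and 327 to 661 CPM in wild-type mice. Knockout mouse 1 stood apart from the other 6 libraries, with 940 tested genes at 0 counts, against 51 to 281 elsewhere. Results that rest on it are given with and without it.

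No genotype difference in these genes passed the threshold after adjustment over all genes. In total 8 of the 10 had enough counts to be tested, and the other two, Lyve1 and Marco, did not pass the filter on low counts. All 8 had a fold change below 0 in knockout mice, against 50.25% of all 16234 tested genes. Their median was -0.71 on the log2 scale, against -0.0016 over all tested genes. The 8 genes share the same mice, so their signs are not independent results. They were also chosen with earlier results of these data known. At an adjusted p under 0.05 edgeR called 0 of the 8, against 0.037% of all tested genes, and DESeq2 called 0, against 0.603% of the genes to which it gave an adjusted p. At an unadjusted p under 0.05 there were 2 of the 8, Msr1 and Timd4, both with lower values in knockout mice, against 5.37% of all tested genes in either direction and 2.79% in that direction. In the same 2 genes the values of knockout and wild-type mice did not overlap, against 6.12% of all tested genes in either direction and 3.33% in that direction, while the other 6 overlapped.

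**Figure D1:**
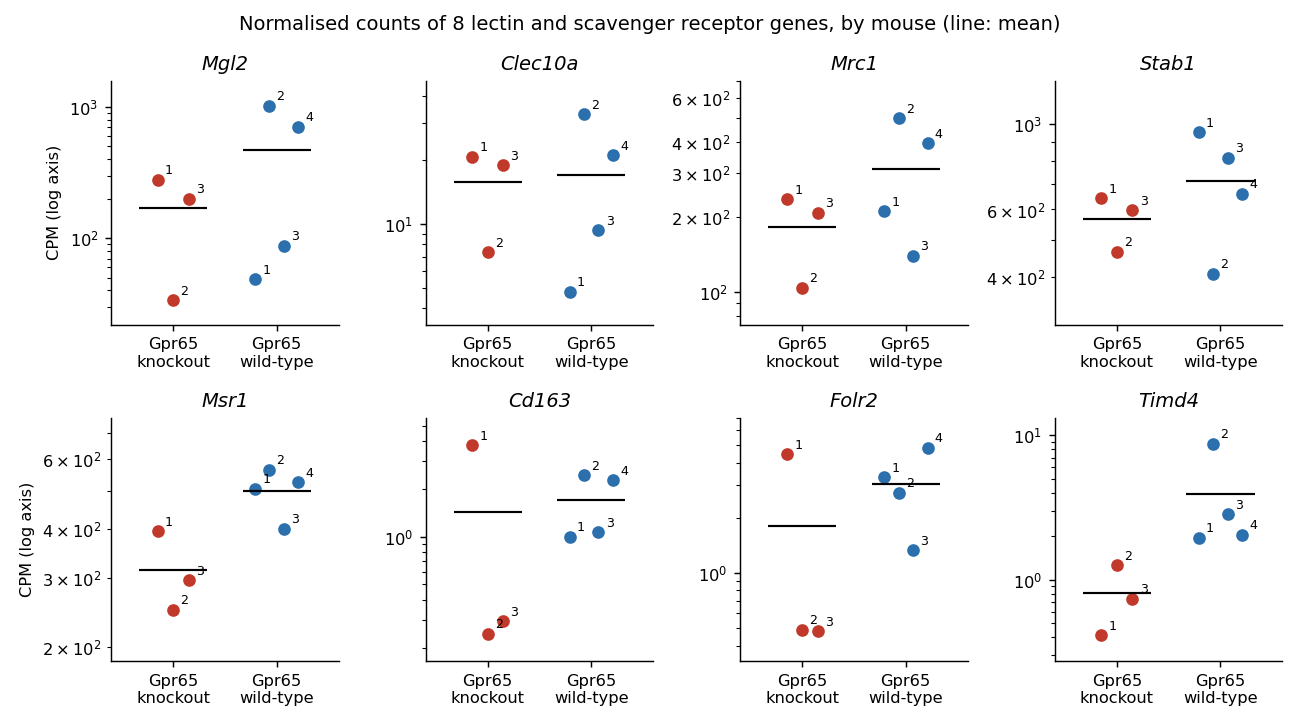
Normalised counts (CPM, log axis) of the 8 tested receptor genes in each mouse, with Gpr65 knockout mice in red, wild-type mice in blue, the mouse number beside each point and the group mean as a line. Msr1 and Timd4 do not overlap between the groups, and Mgl2 spans from 33.8 to 1022 CPM over the 7 mice.

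The lectin genes differed widely between mice of the same genotype. Mrc1 encodes the macrophage mannose receptor, which binds mannose, fucose and collagen and internalises glycoproteins. It lies on chromosome 2 (14229392 to 14332057, plus strand, GRCm38), and its intronic hairpin gene Mir511 held 35 counts in all libraries together, which do not measure the mature microRNA. Mrc1 measured 236, 104 and 208 CPM in knockout mice 1 to 3, against 210, 498, 139 and 394 CPM in wild-type mice 1 to 4. Wild-type mice 2 and 4 were the highest, and wild-type mice 1 and 3 lay among the knockout mice. The means were 182 ± 69.5 CPM in knockout and 310 ± 165 CPM in wild-type mice, with a log2 fold change of -0.77 (SE 0.45, edgeR adjusted p = 1.00). With 1 mouse left out at a time the log2 fold change lay between -1.03, without wild-type mouse 3, and -0.44, without wild-type mouse 2.

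Mgl2 and Clec10a are neighbours on the plus strand of chromosome 11 (GRCm38), and encode the macrophage galactose-type lectins. These bind terminal galactose and N-acetylgalactosamine on glycoproteins and are also used as markers of conventional dendritic cells. Mgl2 occupies 70130329 to 70137550 and Clec10a 70156197 to 70170834, with 18.6 kb and no other annotated gene between them. Their longest coding sequences, of 1143 and 924 bases, were 90.4% identical over 910 aligned bases, with an identical run of 183 bases. Of the 50-base words in Mgl2 transcripts 13.1% also occur in transcripts of other genes, chiefly Clec10a, and of those of Clec10a 9.02% do so. Reads from such words cannot be assigned to 1 of the genes, so the split of counts between Mgl2 and Clec10a is uncertain. The stretches below show bases that tell the transcripts apart within the aligned part. They are the least alike of all 90-base windows that align without a gap, so differences beside gaps are not in them, read from GENCODE M21 transcripts, with the 8 differing bases in capitals. The Mgl2 stretch lies in exon 9 (chr11:70136689-70136778, plus strand), and the Clec10a stretch spans exons 8 and 9 (chr11:70170179-70170419, plus strand, intron left out).
Mgl2: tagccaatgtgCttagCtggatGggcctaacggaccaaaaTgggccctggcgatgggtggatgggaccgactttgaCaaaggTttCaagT
Clec10a: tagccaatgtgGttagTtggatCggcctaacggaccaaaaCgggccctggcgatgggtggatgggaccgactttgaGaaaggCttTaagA

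Mgl2 measured 278, 33.8 and 200 CPM in knockout mice 1 to 3, against 48.8, 1022, 87.6 and 705 CPM in wild-type mice 1 to 4. The highest and lowest mouse differed 30.2-fold over all 7 and 20.9-fold within the wild-type group alone, so the knockout range lay almost wholly inside the wild-type range. Only knockout mouse 2 lay below it. The means were 171 ± 125 CPM in knockout and 466 ± 477 CPM in wild-type mice. The log2 fold change of -1.45 (SE 1.06, edgeR adjusted p = 1.00) had a 95% interval of -3.87 to 0.97, which leaves room for large differences either way. With 1 mouse left out it lay between -2.01, without knockout mouse 1, and -0.72, without wild-type mouse 2.

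Clec10a measured 20.8, 7.32 and 18.9 CPM in knockout mice 1 to 3, against 4.78, 32.95, 9.36 and 21.1 CPM in wild-type mice 1 to 4. The knockout values lay inside the wild-type range, with wild-type mouse 2 the highest and wild-type mouse 1 the lowest. The means were 15.7 ± 7.29 CPM in knockout and 17.1 ± 12.6 CPM in wild-type mice, a log2 fold change of -0.12 (SE 0.61, edgeR adjusted p = 1.00, 95% interval -1.51 to 1.27). Its sign turned without knockout mouse 2 (0.22) or without wild-type mouse 2 (0.42).

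Among the scavenger receptor genes, Msr1 came closest to a genotype difference. It encodes the class A scavenger receptor of macrophages, a collagen-like trimer that takes up modified lipoproteins, and lies on chromosome 8 (39581685 to 39642673, minus strand, GRCm38). Msr1 measured 394, 249 and 296 CPM in knockout mice 1 to 3, against 505, 565, 400 and 526 CPM in wild-type mice 1 to 4. Each knockout mouse lay below each wild-type mouse, although knockout mouse 1 and wild-type mouse 3 lay close together. The means were 313 ± 74.2 CPM in knockout and 499 ± 70.4 CPM in wild-type mice, so the knockout mean was 62.7% of the wild-type mean. The log2 fold change was -0.67 (SE 0.21, 95% interval -1.15 to -0.19), with an unadjusted p of 0.0113 and an edgeR adjusted p of 0.776 over all genes. With 1 mouse left out at a time the log2 fold change lay between -0.89, without knockout mouse 1, and -0.53, without knockout mouse 2. The edgeR adjusted p was 0.179 without knockout mouse 1 and 0.9999 without knockout mouse 2. The two-sided exact permutation test on the CPM gave p = 0.0571, where 3 against 4 mice can go no lower than 0.0286. Msr1 also varied little, with a biological coefficient of variation of 22.3%, below the median of 31.6% over tested genes.

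Stab1 encodes stabilin-1, an endocytic receptor that clears modified lipoproteins and matrix fragments, and its summed counts were the largest of the 10 genes. It lies on chromosome 14 (31139013 to 31168641, minus strand, GRCm38) and shares 112 exon bases with Nt5dc2 of the opposite strand. Stab1 measured 642, 466 and 597 CPM in knockout mice 1 to 3, against 953, 409, 817 and 660 CPM in wild-type mice 1 to 4. Wild-type mouse 2, the highest for the lectins, was the lowest of all 7 mice for Stab1. The means were 568 ± 91.6 CPM in knockout and 710 ± 234 CPM in wild-type mice, with a log2 fold change of -0.32 (SE 0.28, edgeR adjusted p = 1.00). It lay between -0.51, without wild-type mouse 2, and -0.16, without wild-type mouse 1.

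Cd163 and Marco were low or at 0. Cd163, on chromosome 6 (124304656 to 124330527, plus strand, GRCm38), encodes a scavenger receptor which in human takes up haemoglobin bound to haptoglobin. It had 110, 6 and 8 counts in knockout mice 1 to 3, or 3.76, 0.244 and 0.294 CPM, against 0.998, 2.43, 1.06 and 2.27 CPM in wild-type mice 1 to 4. Knockout mouse 1 was the highest of all mice and the other two knockout mice the lowest. The log2 fold change of -0.23 (SE 0.94, edgeR adjusted p = 1.00) was -2.65 without knockout mouse 1 (adjusted p = 0.24), and above 0 without knockout mouse 2 (0.26) or 3 (0.25). Marco, on chromosome 1 (120474538 to 120505024, minus strand, GRCm38), encodes a scavenger receptor that binds bacteria and is high in lung alveolar macrophages. It had 0 counts in each of the 7 libraries, where a count of 0 allows at most 0.1248 CPM in any library, for counting error only.

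Of the remaining receptor genes, Timd4 had non-overlapping groups at a low level. It encodes Tim-4, a phosphatidylserine receptor for apoptotic cells that marks long-lived resident macrophages in several tissues, and lies on chromosome 11 (46810800 to 46844332, plus strand, GRCm38). Timd4 had 12, 31 and 20 counts in knockout mice 1 to 3, against 47, 227, 86 and 56 in wild-type mice 1 to 4. These are 0.41, 1.26 and 0.735 CPM in knockout mice, against 1.96, 8.76, 2.85 and 2.05 CPM in wild-type mice. Each knockout mouse lay below each wild-type mouse, and wild-type mouse 2 lay far above the other three. The means were 0.802 ± 0.43 CPM in knockout and 3.90 ± 3.26 CPM in wild-type mice. The log2 fold change was -2.28 (SE 0.70, 95% interval -3.88 to -0.68), with an unadjusted p of 0.0103, an edgeR adjusted p of 0.776 and an exact permutation p of 0.0857. Without wild-type mouse 2 it was -1.51 (adjusted p = 0.95). Over all alternatives tried the adjusted p lay between 0.0755, by DESeq2, and 1.00.

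Folr2 encodes folate receptor beta, a marker of perivascular resident macrophages, and lies on chromosome 7 (101839988 to 101857194, minus strand, GRCm38). It measured 4.44, 0.488 and 0.478 CPM in knockout mice 1 to 3, from 130, 12 and 13 counts, against 3.33, 2.74, 1.33 and 4.82 CPM in wild-type mice 1 to 4. Knockout mice 2 and 3 lay below all wild-type mice and knockout mouse 1 lay near the highest of them. The means were 1.80 ± 2.29 CPM in knockout and 3.06 ± 1.45 CPM in wild-type mice. The log2 fold change of -0.75 (SE 0.84, edgeR adjusted p = 1.00) was -2.66 without knockout mouse 1 (adjusted p = 0.18), -0.31 without knockout mouse 2 or 3 and -0.45 without wild-type mouse 4. The antisense gene Gm10602 holds 52.6% of the 50-base words of Folr2 and held 68 counts over all libraries, beside 478 for Folr2. Reads from that shared part cannot be assigned where strand was not used in counting.

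Lyve1, on chromosome 7 (110850607 to 110863239, minus strand, GRCm38), encodes a hyaluronan receptor of lymphatic endothelium and of macrophages along vessels. It had 3, 1 and 0 counts in knockout mice 1 to 3, against 15, 1, 0 and 14 counts in wild-type mice 1 to 4. Nearly all its 34 counts came from wild-type mice 1 and 4, and no fold is given because most libraries lay at or under 3 counts. Of 12 markers of lymphatic and sinusoidal endothelium, Prox1, Pdpn, Cldn5 and Clec4g were at 0 in all libraries. Cdh5, which defines endothelium, measured 0.651 to 4.10 CPM in knockout mice and 0.424 to 1.33 CPM in wild-type mice. The summed level of the 12 was 33.6 to 61.4 CPM in knockout and 32.6 to 165 CPM in wild-type mice, chiefly Pecam1, which leukocytes also express, and 6 of the 12 had a higher and 2 a lower mean in knockout mice. The part of such cells in the Lyve1 counts was not tested.

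**Figure D2:**
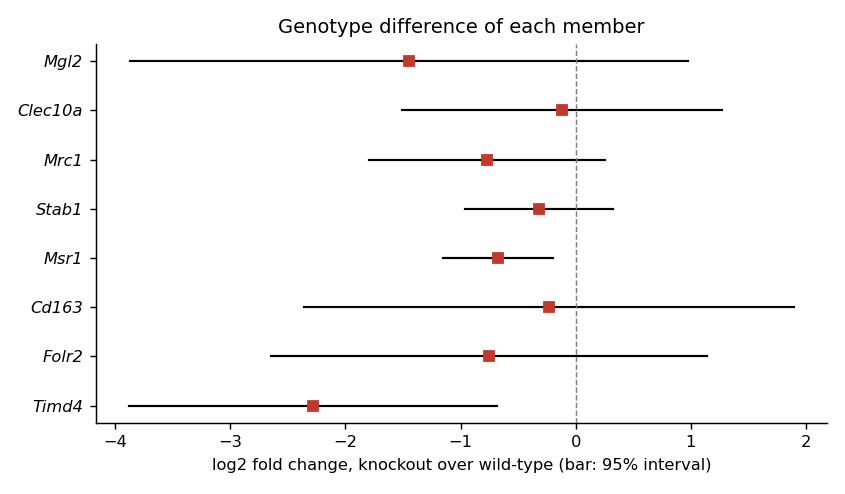
Log2 fold change of each tested receptor gene, Gpr65 knockout over wild-type, from edgeR (square) with its 95% interval (bar), before adjustment over genes. The intervals of Msr1 (-1.15 to -0.19) and Timd4 (-3.88 to -0.68) lie below 0, and those of the other 6 genes cross it.

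Levels of different genes were compared per kilobase of exon. Mgl2 was first in wild-type mice at 222 ± 228 CPM per kb, followed by Msr1 at 78.7 ± 11.1, Stab1 at 69.0 ± 22.7 and Mrc1 at 48.7 ± 25.9 CPM per kb. In knockout mice the order was Mgl2 at 81.6 ± 59.6, Stab1 at 55.2 ± 8.90, Msr1 at 49.4 ± 11.7 and Mrc1 at 28.6 ± 10.9 CPM per kb. Msr1 ranked above Mrc1 in each of the 7 mice. Stab1 ranked above Mrc1 in each knockout mouse, without overlap, and below it in wild-type mouse 2. The other neighbours overlapped in both genotypes and changed places between mice. Mgl2 ranked first of the 10 in knockout mice 1 and 3 and wild-type mice 2 and 4, and Stab1 ranked first in the other three. Clec10a followed at 5.41 ± 2.52 CPM per kb in knockout and 5.88 ± 4.36 CPM per kb in wild-type mice. Folr2 (1.17 ± 1.48 and 1.98 ± 0.937), Timd4 (0.369 ± 0.198 and 1.797 ± 1.501) and Cd163 (0.262 ± 0.369 and 0.309 ± 0.14, knockout and wild-type mice, CPM per kb) had lower means still. Mean Mgl2, Msr1, Stab1 and Mrc1 levels per kb exceeded those of 97.4%, 93.8%, 93.5% and 90.2% of tested genes, and Cd163 those of 9.92%.

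The mix of receptors varied between mice within each genotype. Mgl2 made up 17.6%, 3.92% and 15.2% of the counts of the 10 genes in knockout mice 1 to 3, against 2.82%, 40.2%, 6.01% and 30.5% in wild-type mice 1 to 4. Stab1 made up 40.6%, 54.1% and 45.2% in knockout mice and 55.1%, 16.1%, 56.0% and 28.5% in wild-type mice. The share of Msr1 stayed within 22.4% to 28.9% in knockout and 22.2% to 29.2% in wild-type mice. Mgl2 thus held the largest share of counts in wild-type mice 2 and 4, and Stab1 held it in the other 5 mice. These shares are not corrected for gene length, unlike the order per kb above.

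Several receptor genes, the lectin genes among them, had similar patterns across mice, with no pair past the threshold after adjustment. Over all 7 mice, Mgl2 and Clec10a had Pearson's r = 0.93 (exact permutation p = 0.00238, adjusted p = 0.0667 over 28 pairs) and Spearman's rho = 0.96 (exact permutation p = 0.00278, adjusted p = 0.0778) on log2 CPM. Without the 2 mice farthest from the median of Mgl2, r was 0.91, and without knockout mouse 1 it was 0.94. Mgl2 and Mrc1 had r = 0.91 (exact permutation p = 0.00813, adjusted p = 0.0759) and rho = 0.89 (exact permutation p = 0.0123, adjusted p = 0.172), with r = 0.78 without the 2 mice farthest from the median of Mrc1 and r = 0.92 without knockout mouse 1. Cd163 and Folr2 had r = 0.92 (exact permutation p = 0.00794, adjusted p = 0.0759) and rho = 0.71 (exact permutation p = 0.0881, adjusted p = 0.274), with r = 0.87 without knockout mice 1 and 2 and r = 0.91 without knockout mouse 1 alone. The remaining lectin pair, Mrc1 and Clec10a, had r = 0.74 (exact permutation p = 0.0599, adjusted p = 0.24). That r was 0.50 without the 2 mice farthest from the median of Mrc1. Folr2 and Msr1, which are not lectin genes, had r = 0.85 (exact permutation p = 0.0194, adjusted p = 0.136), and 0.31 without knockout mice 2 and 3. Of the 28 pairs of tested genes, 24 had a positive r and 0 passed an adjusted p of 0.05, with 6 at an unadjusted p under 0.05. All 4 negative r involved Stab1, which with Mgl2 had r = -0.40 (exact permutation p = 0.376, adjusted p = 0.619), rho = -0.32 (exact permutation p = 0.498, adjusted p = 0.664) and r = 0.41 without wild-type mice 1 and 2. That relation rests on those 2 mice.

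**Figure D3:**
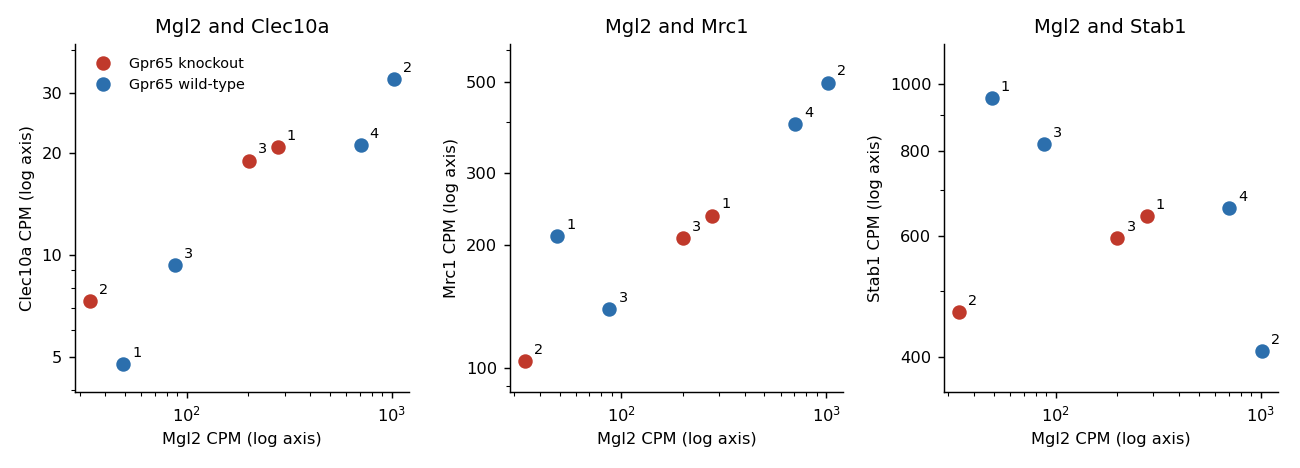
Clec10a, Mrc1 and Stab1 against Mgl2 in each mouse (CPM, both axes logarithmic, mouse number beside each point), with knockout mice in red and wild-type mice in blue. Clec10a and Mrc1 are high where Mgl2 is high in both genotypes (r = 0.93 and 0.91), and Stab1 shows no such relation.

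Because Mgl2 and Clec10a share sequence, their counts were also set against each other. There were 7.47, 21.7 and 9.46 Clec10a counts per 100 Mgl2 counts in knockout mice 1 to 3, against 9.80, 3.23, 10.7 and 2.99 in wild-type mice 1 to 4. This ratio was lowest in the 2 mice with most Mgl2. Mrc1, which has 0 of its 50-base words in other genes, had a similar pattern to Mgl2, which does not measure the reads that Mgl2 and Clec10a share. The part of shared reads in the joint variation of Mgl2 and Clec10a was not tested.

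The windows around the start sites of Mgl2 and Mrc1, the abundant lectin genes in the RefSeq promoter table (GRCm38.p6), are shown for reference, with 250 bases before and 50 after each start site. That table matched 7 of the 10 genes, and the others are Clec10a, Msr1 and Lyve1. Capitals mark GAGGAA, the core of sites for the macrophage factor PU.1, on either strand (TTCCTC on the printed one). The Mgl2 window is chr11:70130107-70130406, plus strand, and the Mrc1 window chr2:14229164-14229463, plus strand.
Mgl2: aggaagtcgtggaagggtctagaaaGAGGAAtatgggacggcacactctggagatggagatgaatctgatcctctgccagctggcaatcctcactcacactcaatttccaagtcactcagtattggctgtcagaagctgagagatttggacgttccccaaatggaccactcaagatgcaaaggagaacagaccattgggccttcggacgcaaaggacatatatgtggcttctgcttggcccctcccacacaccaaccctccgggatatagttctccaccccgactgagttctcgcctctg
Mrc1: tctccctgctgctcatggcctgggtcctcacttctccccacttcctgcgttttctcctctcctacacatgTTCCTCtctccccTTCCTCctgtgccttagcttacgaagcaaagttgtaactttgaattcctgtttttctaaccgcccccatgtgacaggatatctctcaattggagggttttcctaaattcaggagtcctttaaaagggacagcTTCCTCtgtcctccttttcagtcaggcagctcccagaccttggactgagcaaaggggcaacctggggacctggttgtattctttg

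The Mgl2 window held 1 match to GAGGAA and the Mrc1 window 3, and 28.3% of all 32851 windows in the table hold at least 1. The windows of Cd163 and Folr2, also alike across mice, held 0, as did that of Timd4. Those of Stab1, which did not follow the lectins, and of Marco, at 0 counts throughout, held 1 each. None of these windows held a match to the STAT6-type or the STAT-type palindrome, TTC and GAA spaced by 4 or by 3 bases. Such matches occur in 6.95% and 8.30% of all windows. These are matches of letters in a short window, not sites of binding.

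The genes whose pattern over the 7 mice was most like the mean of the 8 tested receptors were Dok2, Klf9, S100a10, Crip1 and Cdh1, with Pearson's r of 0.992, 0.989, 0.983, 0.982 and 0.982, the highest of all named tested genes and given as a description. Dok2, an adaptor protein of tyrosine kinase signalling, measured 159, 29.1 and 73.5 CPM in knockout mice 1 to 3, against 104, 347, 103 and 325 CPM in wild-type mice 1 to 4. Cdh1, which encodes E-cadherin and can be expressed by macrophages exposed to interleukin-4, measured 167, 37.6 and 76.0 CPM in knockout mice, against 123, 375, 131 and 437 CPM in wild-type mice. Wild-type mice 2 and 4 were again the highest and knockout mouse 2 the lowest in both genes.

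In the lists of other genes of the same receptor families and programme edgeR called 0 genes, and DESeq2 called the 5 named below. Over the whole table DESeq2 called 0.603% of the genes to which it gave an adjusted p. Of 25 further C-type lectin genes 17 were tested, with 8 fold changes above 0 and 9 below and a median of -0.04. Clec7a, the beta-glucan receptor dectin-1, was the most abundant, at 482 ± 164 CPM in knockout and 887 ± 869 CPM in wild-type mice. The fitted difference of Clec7a was -0.88 on the log2 scale (SE 0.74, adjusted p = 1.00 by edgeR), and wild-type mouse 2, at 2073 CPM, was again the highest. Clec5a measured 236 ± 41.2 CPM in knockout and 295 ± 57.6 CPM in wild-type mice. DESeq2 called Clec4e, the receptor Mincle, with a log2 fold change of -1.48 (DESeq2 adjusted p = 0.0341), and Clec12a with 1.496 (DESeq2 adjusted p = 0.0468), while edgeR gave adjusted p = 0.73 and 0.736. Clec4e measured 13.9 to 43.6 CPM in knockout and 48.5 to 91.7 CPM in wild-type mice. Clec12a measured 75.7 to 335 CPM in knockout and 55.5 to 89.4 CPM in wild-type mice, so its groups overlapped.

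Of 16 other scavenger receptor genes 14 were tested, with 8 fold changes above 0 and 6 below and a median of 0.01. Cd68, a lysosomal scavenger receptor and pan-macrophage marker, was steady at 1202 ± 110 CPM in knockout and 1193 ± 72.8 CPM in wild-type mice. Cxcl16, a membrane-bound chemokine that also takes up oxidised lipoprotein, measured 1129 ± 447 CPM in knockout and 893 ± 140 CPM in wild-type mice. Olr1, the oxidised lipoprotein receptor, was called lower by DESeq2 (log2 fold change -2.12, DESeq2 adjusted p = 0.0459) and not by edgeR (adjusted p = 0.776). It measured 2.24 to 5.11 CPM in knockout and 4.99 to 29.4 CPM in wild-type mice, so the groups overlapped.

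Of 22 other resident-type macrophage genes 19 were tested, with 5 fold changes above 0, 14 below, a median of -0.36 and 0 called by edgeR. At an unadjusted p under 0.05, edgeR had 4 of the 19 lower and 0 higher, against 2.79% of all tested genes lower. Selenop, a secreted selenium carrier, measured 509 ± 305 CPM in knockout and 362 ± 117 CPM in wild-type mice. Ccl8, a monocyte chemoattractant, measured 31.6, 260 and 348 CPM in knockout mice 1 to 3, against 7.03, 1068, 7.23 and 152 CPM in wild-type mice 1 to 4. Fcna, a ficolin that binds sugars on microbes, was called lower by DESeq2 (log2 fold change -2.89, DESeq2 adjusted p = 0.00343), while edgeR gave adjusted p = 0.729. It measured 0.82 to 1.76 CPM in knockout and 2.06 to 18.0 CPM in wild-type mice. Chosen after their values were seen, Pf4, a platelet-type chemokine of resident macrophages, had a log2 fold change of -0.92 (edgeR adjusted p = 0.805), and Siglec1, the sialic acid receptor sialoadhesin, -0.07 (adjusted p = 1.00).

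**Figure D4:**
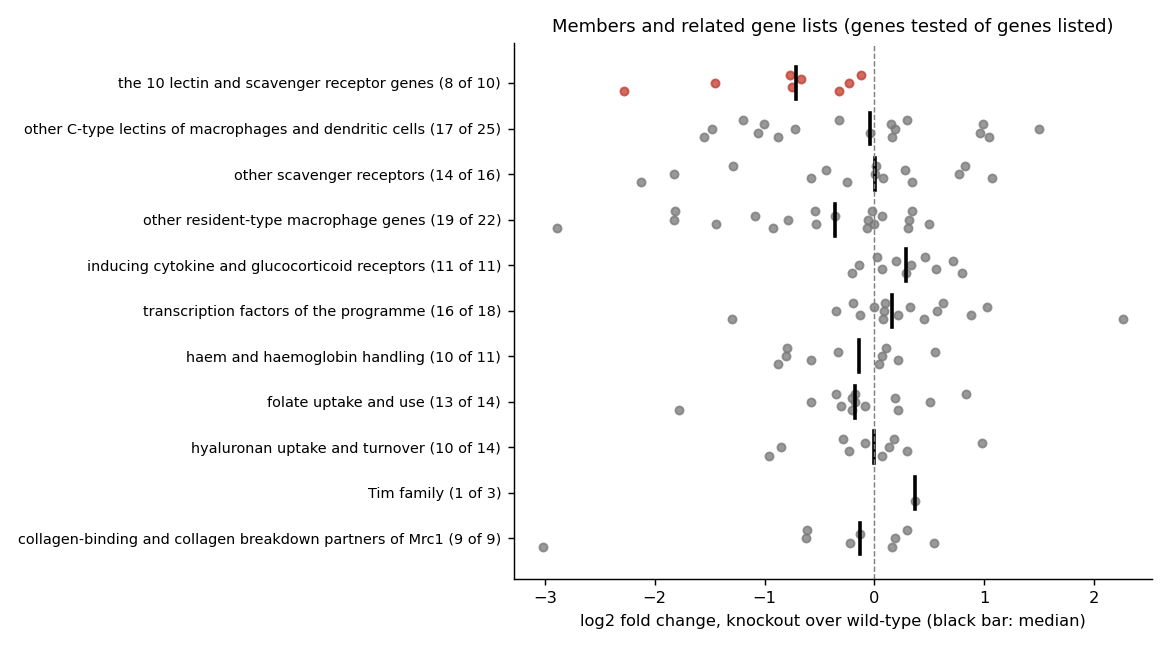
Log2 fold change (knockout over wild-type) of each tested gene in the receptor set (red) and in the related gene lists (grey), with the list's median as a black bar. The medians range from -0.71 for the receptor set to 0.37 for Havcr2, the only tested Tim family gene of that list, and no gene shown was called by edgeR.

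Most listed genes for cytokine and glucocorticoid receptors and for transcription factors were expressed, while the factor gene Egr2 had 0 counts in all 7 libraries. All 11 receptor genes for interleukin-4, interleukin-10, CSF1, TGF-beta, interferon-gamma and glucocorticoids were tested, with 9 fold changes above 0, 2 below, a median of 0.29 and 0 called by edgeR. Il4ra, the interleukin-4 receptor chain, measured 570 ± 115 CPM in knockout and 561 ± 46.8 CPM in wild-type mice. Csf1r, the receptor for the macrophage growth factor, measured 2599 ± 668 CPM in knockout and 2476 ± 544 CPM in wild-type mice. Of 18 transcription factor genes 16 were tested, with 11 above 0, 5 below, a median of 0.16 and 0 called by edgeR. At an unadjusted p under 0.05, edgeR had 4 of these 16 higher and 0 lower. Of all 16234 tested genes 418 were higher at that threshold, and 5.37% passed it in either direction. Cebpb measured 657 ± 140 CPM in knockout and 836 ± 314 CPM in wild-type mice. Spic, a factor of red pulp macrophages, was called higher by DESeq2 (log2 fold change 2.27, DESeq2 adjusted p = 0.039) and not by edgeR (adjusted p = 0.73).

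Pathways that act on the ligands of these receptors had 0 called genes by edgeR and by DESeq2. Of the haem and haemoglobin genes 10 of 11 were tested, with 5 fold changes above 0, 5 below and a median of -0.14. The ferritin heavy chain gene Fth1 measured 10370 ± 2371 CPM in knockout and 9655 ± 1345 CPM in wild-type mice, and Lrp1, an endocytic receptor, 603 ± 125 CPM in knockout and 899 ± 277 CPM in wild-type mice. Of the folate genes 13 of 14 were tested, with 4 above 0, 9 below and a median of -0.18. Shmt2 measured 71.6 ± 19.9 CPM in knockout and 91.3 ± 18.7 CPM in wild-type mice. Of the hyaluronan genes 10 of 14 were tested, with 5 above 0, 5 below and a median of -0.01. Their most abundant members were the lysosomal glycosidase genes Gusb, at 673 ± 121 CPM in knockout and 614 ± 108 CPM in wild-type mice, and Hexa, at 630 ± 218 CPM in knockout and 556 ± 83.5 CPM in wild-type mice. Of the proteases and partners of collagen uptake all 9 were tested, with 4 above 0, 5 below and a median of -0.13. The cathepsin genes Ctss and Ctsb measured 5699 ± 2591 and 4474 ± 1547 CPM in knockout mice, against 3910 ± 1370 and 3646 ± 532 CPM in wild-type mice. Havcr2, which encodes Tim-3, measured 219 ± 47.2 CPM in knockout and 169 ± 26.0 CPM in wild-type mice (log2 fold change 0.37, edgeR adjusted p = 1.00), while Timd2 was at 0 and Havcr1 had counts in wild-type mice 1 and 2 only.

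Markers of other cells moved with the lectin genes in some mice. The summed level of 10 dendritic cell markers was 111, 72.1 and 92.2 CPM in knockout mice 1 to 3, against 55.5, 287, 128 and 96.6 CPM in wild-type mice 1 to 4, and none was at 0 in all libraries. It was highest in wild-type mouse 2, which also had most Mgl2, Clec10a and Mrc1, while wild-type mouse 4 lay within the knockout range. Of these markers 3 had a higher and 7 a lower mean in knockout mice. Flt3, which defines dendritic cells, measured 8.51, 1.22 and 2.61 CPM in knockout mice, against 5.99, 13.8, 9.49 and 6.29 CPM in wild-type mice. The summed level of 8 monocyte markers was 368 to 740 CPM in knockout and 751 to 4209 CPM in wild-type mice, so it moved with Msr1 and Timd4 between the groups. Of them 0 had a higher and 7 a lower mean in knockout mice, and Treml4 was at 0. Chil3 alone made 3241 CPM of it in wild-type mouse 2. The 7 MC38 and epithelial markers summed to 41.9 to 168 CPM in knockout and 126 to 451 CPM in wild-type mice, nearly all of it Cdh1, with none at 0 in all libraries, 0 higher and 7 lower in mean in knockout mice. Epcam, which defines epithelium, measured 1.61 to 3.74 CPM in knockout and 2.41 to 5.30 CPM in wild-type mice. The part of these cells in the values above was not tested, and in sorted bulk samples fewer cells of a type and less RNA per cell cannot be told apart.

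The other marker lists had overlapping groups, as did the dendritic cell list and the MC38 and epithelial list above. Neutrophil markers summed to 88.0 to 184 CPM in knockout and 83.5 to 216 CPM in wild-type mice, with Ly6g at 0 throughout, 1 of 10 markers higher and 8 lower in mean in knockout mice. T cell markers summed to 20.7, 73.8 and 501 CPM in knockout mice 1 to 3, against 33.6 to 119 CPM in wild-type mice, with 10 of 10 higher in mean in knockout mice. B cell markers summed to 10.8 to 41.7 and 9.43 to 21.4 CPM, fibroblast markers to 51.2 to 302 and 124 to 333 CPM, and mast cell and eosinophil markers to 6.90 to 11.8 and 6.24 to 34.5 CPM, in knockout and wild-type mice in that order. The 10 macrophage genes summed to 16610 to 33940 CPM in knockout and 16970 to 19300 CPM in wild-type mice, with 9 of 10 higher in mean in knockout mice. Knockout mouse 2, the highest of these, was the lowest of all 7 mice for Mgl2, Mrc1, Msr1 and Cd163.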

How the data were processed

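The authors deposited a table of raw read counts per Ensembl gene, 1 column per mouse, without normalization. SMART-seq libraries were prepared from polyA RNA, per the labels. The build GRCm38 and, without role or order, DESeq2 1.24.0, BWA 0.7.12, FastQC 0.11.5 and cutadapt 1.15 are named in the submitters' processing notes. Sources used here do not give the read counter, annotation or use of strand: overlapping and antisense genes were not separated.

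Genes were named from GENCODE M21 (53274 of 53379 identifiers matched). Rows without a symbol held 0.000338% of counts. edgeR 4.0.16 (R 4.3.3) compared genotypes with the quasi-likelihood F test, robust estimation, TMM scaling, the default low-count filter (16234 genes kept) and Benjamini-Hochberg adjustment at 0.05. The test was checked on simulated data. CPM are TMM-scaled deposited counts, with a prior count of 2 on the log2 scale. Levels per kb divide CPM by merged exon length. Exact two-sided permutation tests covered the 35 splits of 7 libraries or the 5040 orders of a pair. Libraries of any pair differed by at least 29.9 times the sampling variance, so none repeats another.

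The receptor genes and lists were chosen with earlier results of these data known. Besides the 10 receptor genes and Gpr65, each list names genes past the threshold or else its 2 most abundant (some are not reported here), and 5 genes are named by likeness. Other named genes were chosen after their values were seen. Alternatives were other scalings and filters, DESeq2 1.42.0, limma 3.58.1 voom, the mouse number as a block and estimation that is not robust. A threshold of 0.1, rows taken by Ensembl identifier, another prior count and each library left out were further ones. The planned protein comparison was not made.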

Additional observations from a re-analysis of the deposited data

Results flagged for a closer look

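Among the 9 receptor genes with counts, Timd4 in wild-type mice had 1 mouse far from the other three. The gap of wild-type mouse 2 (8.76 CPM) to the nearest mouse (2.85 CPM) was 0.868 of the whole range, above Dixon's 95% limit for 4 samples. Chance flags about 1 in 20 such groups. Groups of 3, such as the knockout mice, were not examined.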

How the results depend on the processing

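No receptor gene was called under any alternative tried. Of 152 fold changes of the 8 tested genes under 19 alternatives each, 145 kept their sign and stayed above the threshold, and 7 turned sign, with the cause not tested. Among the 19, the threshold of 0.1 and the choice of rows by Ensembl identifier reuse the main fit, so no fold change could differ there. By limma voom Clec10a was 0.46, and Cd163 was -1.76, Folr2 -1.89 and Mgl2 -0.30. Leaving out 1 library in turn gave -0.45 to 0.42 for Clec10a and -2.65 to 0.26 for Cd163. With the mouse number as a block, Mgl2 was 0.29, Clec10a 0.43 and Cd163 and Folr2 -1.15 each, and 1 gene of the whole table was called. The labels do not say that mice sharing a number are paired. Deviations of same-numbered mice correlated at 0.0509 to 0.0882, against -0.194 to 0.095 for the other knockout and wild-type pairs. So few pairs cannot decide whether the numbers pair the mice. The table-wide count of 6 called genes was 11 by edgeR with every counted gene kept, 120 by DESeq2, which was also given every counted gene, and 3 to 14 with 1 library left out. Without scaling, the median of all genes shifted by -0.107 (log2), and no receptor gene changed sign. The count of 0 pairs past an adjusted p of 0.05 did not change without knockout mouse 1 or with a prior count of 0.5. Low counts limit Cd163, Folr2, Timd4 and Lyve1, and 3 against 4 mice limit all genes.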

Other observations

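The following genes were picked after their values were seen. Cd163l1, a relative of Cd163, had 0 counts in all 3 knockout mice, where a count of 0 allows up to 0.122 CPM, and measured 1.96, 0.0386, 0 and 2.71 CPM in wild-type mice 1 to 4. It was therefore seen chiefly in wild-type mice 1 and 4, the same mice that held 15 and 14 of the 34 Lyve1 counts. Ctsk, the cathepsin K gene of the collagen list, measured 17.6, 0.488 and 0.551 CPM in knockout mice, against 107, 11.8, 47.2 and 36.5 CPM in wild-type mice (log2 fold change -3.02, edgeR adjusted p = 0.917). Cbr2, a carbonyl reductase of resident-type macrophages, measured 13.9, 2.40 and 3.68 CPM in knockout mice, against 16.7, 22.3, 6.04 and 48.7 CPM in wild-type mice (log2 fold change -1.81, edgeR adjusted p = 0.923). In Ctsk, Cbr2, Cd163 and Folr2 alike, knockout mouse 1 was the highest of the knockout mice, and knockout mice 2 and 3 were lower than each wild-type mouse.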
